A study of Mus musculus with 6 samples.

Results

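The receptors for IL-1, IL-18, IL-33 and IL-36 form one gene family, and 7 of its genes together with *Myd88*, the adaptor that they share, were compared between mouse CD4+ T cells with and without surface Lrig1. These 8 genes (*Il1r1*, *Il1r2*, *Il1rap*, *Il1rl1*, *Il1rl2*, *Il18r1*, *Il18rap* and *Myd88*) were chosen by name out of 45777 genes in the tables. The data collected were bulk RNA sequencing of spleen cells of female C57BL/6 mice, aged 7 weeks. The CD4+ T cells were divided into CD4+Lrig1+ and CD4+Lrig1- cells (called Lrig1+ and Lrig1- here) by Lrig1, a transmembrane protein with leucine-rich repeats. C57BL/6 is an inbred strain, no transgene or treatment is named for these mice, and the number of mice behind a library is not given in the sources used here. The labels list 3 samples per group. Here 2 Lrig1+ and 2 Lrig1- libraries were used, in 2 tables with 1 library of each group (called set 1 and set 2), because the column names of a further table do not give the Lrig1 group.

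A receptor of this family pairs a ligand-binding chain with a second chain that signals. *Il1r1* and *Il1rl1* (ST2, the receptor for the alarmin IL-33) and *Il1rl2* (the IL-36 receptor) use *Il1rap* as that second chain, whereas *Il18r1* uses *Il18rap*. The chains meet through their intracellular TIR domains, which recruit Myd88, then IRAK kinases and TRAF6, and so activate NF-κB and MAP kinases. *Il1r2* is the exception of the family, since it binds IL-1 without a signalling TIR domain and acts as a decoy receptor. On CD4+ T cells ST2 is known from Th2 cells and from regulatory T cells (Tregs) of tissues, IL-18 receptors from Th1 cells, and the IL-1 decoy receptor from Tregs and follicular regulatory T cells.

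Estimated counts on genes summed to between 44865070 and 59977951 per library. *Lrig1* itself had 221 and 129 CPM (counts scaled to the library size with TMM, edgeR's normalization) in the Lrig1+ libraries of set 1 and set 2 against 75.4 and 36.7 in the Lrig1- libraries, higher in both sets. The T cell markers *Cd3d*, *Cd3e*, *Cd3g*, *Cd4* and *Lck* summed to 2728 to 4361 CPM per library. With a term for the table, edgeR's quasi-likelihood test on all 4 libraries called 0 of the 5 between the groups, against 27.4% of all genes tested. Without that term it called 0% of all genes, so it could not tell these markers from any other genes. The libraries resembled their table more than their group. Across genes, log2 CPM correlated at 0.975 and 0.974 between the groups within a set and at 0.935 and 0.934 between the sets within a group, where genes are not independent replicates. Each value is therefore given per library, and each comparison is given within the sets as well as over all 4 libraries.

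4 of the 8 genes separated the groups without overlap in CPM: *Il1r2* and *Il1rl1* were higher in both Lrig1+ libraries than in both Lrig1- libraries, and *Il1rl2* and *Il18rap* were lower. Of the 16123 genes left by the filter on low counts, 26.1% separated the groups in this way, 14.3% upward and 11.8% downward. All of the 8 but *Il1r1* had the same sign in both sets (3 higher and 4 lower), as did 77.2% of all genes tested. With edgeR's quasi-likelihood test on all 4 libraries and Benjamini-Hochberg adjustment over the 16123 genes, 0 of the 8 genes and 0% of all genes were called at an adjusted p under 0.05. At an unadjusted p under 0.05 the same 4 genes passed, as did 901 genes or 5.59% of all. With a term for the table of each library (called the table block), which removes the difference between the sets, the quasi-likelihood test called 5 of the 8 genes, *Il1r2* and *Il1rl1* higher and *Il1rl2*, *Il18rap* and *Il18r1* lower, against 27.4% of all genes tested. DESeq2's Wald test with the table block called 4 of them, without *Il18r1*, against 21.1% of all genes. DESeq2's Wald test without the block called 1, *Il1r2*, and over all 17640 genes it tested called 275 higher and 43 lower. The exact test of edgeR without the block also called *Il1r2* alone, and 179 higher and 14 lower of all 16123. For 1 gene alone, exact permutation of 2 against 2 libraries has a smallest p of 0.333. The methods call the study's data biologically independent, but whether the libraries of a table share mice is not given in the sources used here. In RNA from a mixture of cells, more cells of a type that express a gene and more of its RNA per cell cannot be told apart.

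**Figure D1:**
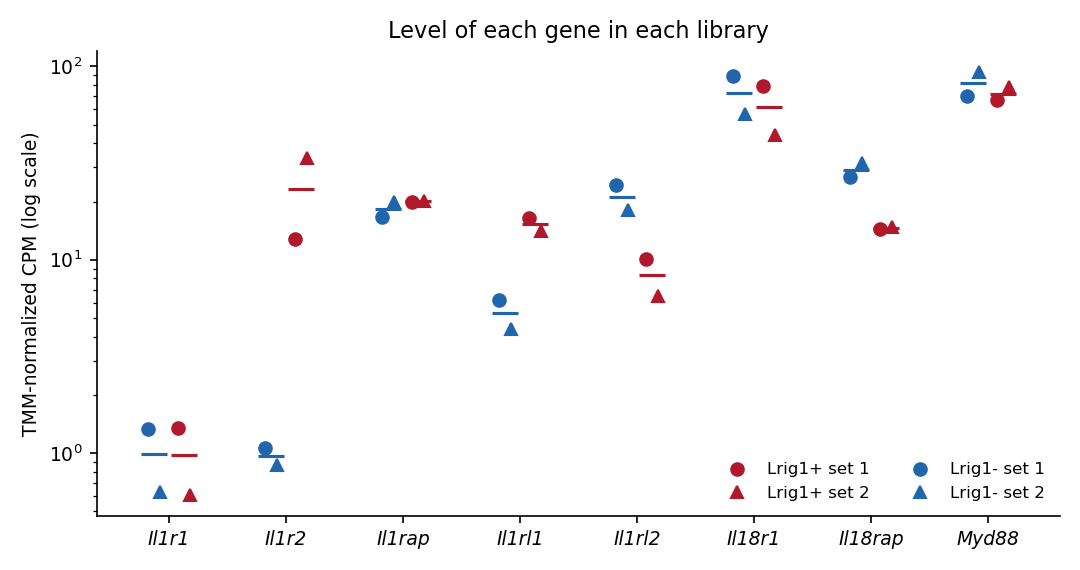
TMM-normalized CPM on a log axis of the 8 genes in each of the 4 libraries, with Lrig1+ in red, Lrig1- in blue, circles for set 1, triangles for set 2 and a bar at the mean of each group (n = 2). *Il1r2* and *Il1rl1* lie above and *Il1rl2* and *Il18rap* below the Lrig1- libraries, and the other 4 genes overlap.

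To show where the *Il1rl1* and *Il1rl2* transcripts described below begin, the sequences before their start sites are given, because *Il1rl1* is read from different starts and the neighbouring *Il1rl2* differed in the opposite direction. They are RefSeq promoter sequences of GRCm38.p6, plus strand, 5′ to 3′, ending at the base before the annotated transcripts begin. All 8 genes had at least 1 entry, but not every start has one. The entry of *Il1r2* belongs to a later start, whose transcript held 8 and 12 counts in Lrig1+ and 0 and 0 in Lrig1- libraries. Those of *Il1r1* belong to transcripts with at most 5 counts in a library, so no entry ends at the start that these genes mainly used. An *Il1r1* entry ends at 40266585, shortly after another start at 40266523. From there transcript XM_006495715 held all 64 *Il1r1* counts of Lrig1- in set 1, but 0 in both libraries of set 2. Capitals mark matches, on either strand, to one of 5 short motifs: AGATAA for the factors of the GATA family, TGTGGT for those of the Runx family, TGANTCA for AP-1, TTCNNNGAA for STAT factors and GTAAACA for forkhead factors.
Il1rl1 distal start, chr1:40429320-40429532: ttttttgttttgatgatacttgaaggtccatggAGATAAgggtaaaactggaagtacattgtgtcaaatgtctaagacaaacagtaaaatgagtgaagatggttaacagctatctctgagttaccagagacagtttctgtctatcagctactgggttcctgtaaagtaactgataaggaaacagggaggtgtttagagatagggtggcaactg
Il1rl1 proximal start, chr1:40439379-40439628: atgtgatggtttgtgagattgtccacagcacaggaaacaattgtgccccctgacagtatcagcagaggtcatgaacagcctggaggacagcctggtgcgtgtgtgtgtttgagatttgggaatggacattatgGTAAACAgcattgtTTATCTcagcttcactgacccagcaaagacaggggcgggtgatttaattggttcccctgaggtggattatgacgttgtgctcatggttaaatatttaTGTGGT
Il1rl2, chr1:40324339-40324588: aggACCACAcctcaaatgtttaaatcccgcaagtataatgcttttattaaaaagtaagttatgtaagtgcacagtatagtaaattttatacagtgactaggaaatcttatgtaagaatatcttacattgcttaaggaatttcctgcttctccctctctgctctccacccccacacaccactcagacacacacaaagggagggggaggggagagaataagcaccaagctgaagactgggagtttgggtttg

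The distal *Il1rl1* sequence held 1 GATA match, 217 bases before position 40429570, the start of its RefSeq promoter entry. The printed part ends before an earlier transcript start at 40429533. The transcript from that earlier start held 820 and 541 counts in the Lrig1+ libraries. The proximal one held a forkhead match at 117 bases, a GATA match on the minus strand at 103 bases and a Runx match at 6 bases before the start, and the *Il1rl2* sequence held 1 Runx match on the minus strand at 247 bases. Among the 250 bases before the start of 32851 RefSeq promoters, 9.99% hold the GATA letters, 14.0% the Runx letters and 3.17% the forkhead letters. The STAT letters, held by 7.02%, stood before 1 start each of *Il18r1* and *Myd88* and before the little used start of *Il1r2*, and the AP-1 letters, held by 6.75%, stood before none of the 12 starts. No match was found in the 250 bases before the starts of *Il1rap*, *Il1r1* or *Il18rap*. A match says only that these letters are present.

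*Il1r2*, the decoy receptor for IL-1 (gene ID 16178, chromosome 1 of GRCm38 from 40084692 to 40125230), differed most among the 8 genes. In set 1 it had 12.8 CPM (664 counts) in Lrig1+ and 1.07 CPM (51 counts) in Lrig1- T cells. In set 2 it had 33.4 CPM (1921 counts) and 0.870 CPM (47 counts). Both Lrig1- libraries were near 1 CPM, and both Lrig1+ libraries stood above 10, with the one of set 2 the higher. The mean was 23.1 ± 14.6 CPM (SD, n = 2) against 0.968 ± 0.138 (n = 2). The log2 ratio between the groups (Lrig1+ over Lrig1-) was 3.54 in set 1 (95% exact interval 3.17 to 4.02) and 5.20 in set 2 (4.85 to 5.71), which is 11.6-fold and 36.9-fold higher. These intervals do not overlap, and they cover counting error only. Over 4 libraries edgeR's quasi-likelihood test gave a log2 fold change of 4.58 ± 0.67 (SE) with an adjusted p of 0.517, and with the table block 4.47 ± 0.34 and 1.43e-04. Without the Lrig1- library of set 1 the quasi-likelihood test without the block also called it, at an adjusted p of 0.00736. Of the 16123 genes tested, 142 had a larger upward fold change with the table block. The annotated transcripts of *Il1r2* start in several places, and those that start between 40084692 and 40084714 held 639 of the 664 counts in Lrig1+ of set 1 and 1720 of the 1921 in set 2. In Lrig1- they held 34 of 51 and 47 of 47. StringTie divides reads that fit several transcripts, so such splits are estimates. *Gm16894*, an antisense lncRNA whose annotation overlaps the 5′ end of *Il1r2*, had 23 and 11 counts in the Lrig1+ libraries and 0 and 0 in the Lrig1- libraries. The kit keeps the strand of the RNA, but whether the counting used it is not stated, so reads of the overlap cannot be told apart.

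*Il1r1*, the signalling receptor for IL-1, was, per transcript length, the lowest of the 8 genes in every library. It had 1.35 CPM (70 counts) in Lrig1+ and 1.34 CPM (64 counts) in Lrig1- T cells of set 1, and 0.609 (35 counts) and 0.630 (34 counts) in set 2. The groups overlapped and the sets did not. The log2 ratio was 0.01 in set 1 (95% exact interval -0.50 to 0.52) and -0.04 in set 2 (-0.77 to 0.68), so at this depth a difference of the size of *Il1r2* lay outside the counting interval and one within it was not detectable. *Il1rap*, the second chain for IL-1, IL-33 and IL-36, had 20.0 and 20.1 CPM in the Lrig1+ libraries and 16.6 and 20.0 CPM in the Lrig1- libraries. Its log2 ratio was 0.26 in set 1 (0.13 to 0.40) and 0.01 in set 2 (-0.11 to 0.13), and with the table block the adjusted p of the quasi-likelihood test was 0.404. Its transcript with the annotated end of the membrane form, NM_008364, held from 91.96% to 97.7% of its counts in each library. The short transcript NM_134103, which encodes a soluble form, held 52 and 41 counts in set 1 and 93 and 25 counts in set 2, in the order Lrig1+ and Lrig1-.

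Per transcript length (TPM), the decoy exceeded the signalling IL-1 receptor in all 4 libraries. The ratio of *Il1r2* to *Il1r1* TPM was 33.6 in Lrig1+ against 2.16 in Lrig1- T cells of set 1, and 222 against 5.57 in set 2. The ratio of *Il1r2* to *Il1rap* TPM was 1.93 and 4.92 in the Lrig1+ libraries and 0.146 and 0.138 in the Lrig1- libraries, so the decoy was the more abundant of that pair in Lrig1+ and the less abundant in Lrig1- T cells. Neutrophils and monocytes also express *Il1r2*. The 7 neutrophil markers summed to 6.69 and 29.3 CPM in Lrig1+ against 8.27 and 69.5 in Lrig1- libraries (set 1 and set 2). With the table block 2 of 6 tested were called, *S100a8* and *Csf3r*, both lower. Among all genes 27.4% were called, and 12.8% were called lower. Neither marker was called by DESeq2 with the same block, against 21.1% of all genes. *Ly6g*, a defining neutrophil gene, was at 0 in both libraries of set 1 and at 0.0871 and 0.278 CPM in set 2. Of the 7 markers it was the only 1 under 1 CPM in every library. *S100a9* had 2.77 and 14.0 CPM in Lrig1+ against 2.55 and 34.5 in Lrig1- libraries. The 7 monocyte and macrophage markers summed to 39.8 and 180 CPM against 37.5 and 168. With the table block 3 of these 7 were called, against 27.4% of all genes. *Csf1r* was called higher, with 13.2 and 65.9 CPM in Lrig1+ against 6.39 and 32.2 in Lrig1- libraries. *Cd5l* was also called higher (2.23 and 13.5 CPM against 0.543 and 3.50), and *Itgam* lower (4.38 and 4.46 against 10.2 and 14.6). The monocyte sum was higher in set 2 than in set 1 in both groups. The part of monocytes in the level of *Il1r2* was not tested.

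*Il1rl1*, which encodes ST2 (gene ID 17082, chromosome 1 from 40404864 to 40465418), was higher in Lrig1+ T cells in both sets. It had 16.4 CPM (855 counts) in Lrig1+ and 6.20 CPM (297 counts) in Lrig1- T cells of set 1. In set 2 it had 14.2 CPM (813 counts) and 4.39 CPM (237 counts). Each Lrig1+ library was more than 2 times the higher of the Lrig1- libraries. The mean was 15.3 ± 1.62 CPM (SD, n = 2) against 5.30 ± 1.28 (n = 2). The log2 ratio was 1.40 in set 1 (95% exact interval 1.21 to 1.60) and 1.68 in set 2 (1.48 to 1.90). The quasi-likelihood test of edgeR gave 1.53 ± 0.37 (SE) with an adjusted p of 0.654, and with the table block 1.55 ± 0.14 and 2.54e-04.

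The starts to which *Il1rl1* reads were assigned differed between the sets. Transcripts from the distal starts, whose upstream sequence is printed above, held 855 and 297 counts in set 1 and 570 and 208 in set 2, in the order Lrig1+ and Lrig1-. Those from the proximal start held 0 and 0 counts in set 1 and 243 and 29 in set 2. All counts of set 1 were thus assigned to the distal starts, whereas in set 2 the proximal start took 29.9% in Lrig1+ and 12.2% in Lrig1- T cells. For the distal starts alone the log2 ratio was 1.41 in set 1 (95% exact interval 1.21 to 1.60) and 1.37 in set 2 (1.13 to 1.60), and for the proximal start in set 2 it was 2.98 (2.42 to 3.59). Within set 2 these intervals do not overlap, but they cover counting error only. They leave out the error of dividing reads between transcripts that share most of their sequence, so the split by start is an estimate. The proximal ratio rests on 1 library of each group. The ends did not part the groups in this way. The long end, which encodes membrane ST2, held 95.9% and 96.0% of the counts in set 1 and 95.1% and 93.7% in set 2. The short end, which encodes the soluble decoy form of ST2, held 35 and 12 counts in set 1 and 40 and 15 in set 2, with log2 ratios of 1.43 (0.44 to 2.51) and 1.33 (0.44 to 2.29). The intervals of both ends lay above 0 in each set.

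**Figure D2:**
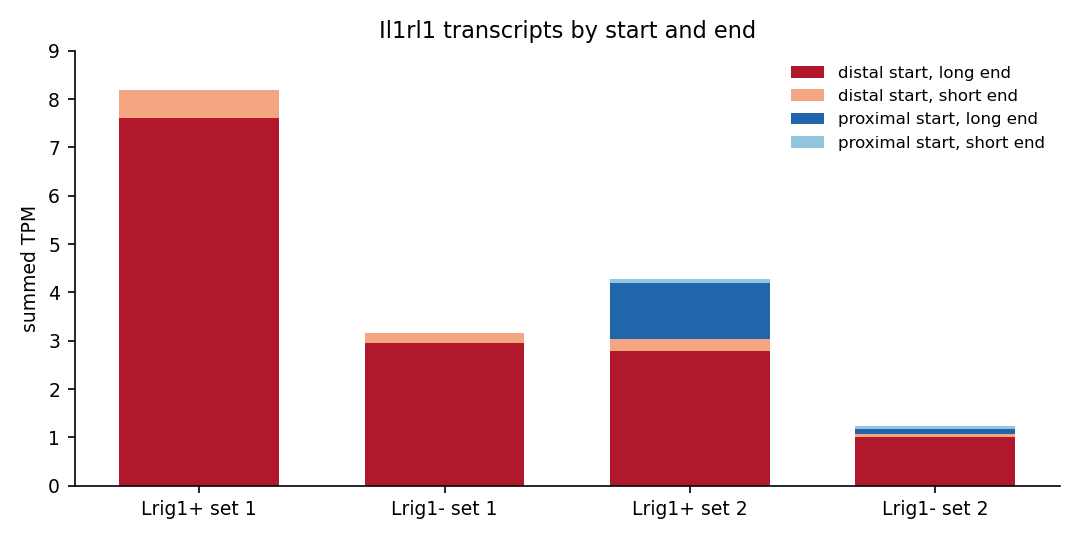
Summed TPM of the *Il1rl1* transcripts in each library, stacked by start (distal in red, proximal in blue) and by end (dark for the long, membrane end and pale for the short, soluble end). Proximal transcripts appear in set 2 alone, and the long distal transcript is the largest part of every bar.

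Other cells and T cell states express ST2, and their genes were read beside it. Mast cells and basophils carry high levels of it, and of their 7 markers 5 were under 1 CPM in every library, among them *Cpa3*, *Fcer1a* and *Ms4a2*, which were at 0 in set 1. The list summed to 2.52 and 4.11 CPM in Lrig1+ against 10.02 and 9.98 in Lrig1- libraries. Most of that sum was *Kit*, a growth factor receptor, with 1.83 and 2.11 CPM against 9.06 and 6.94, called lower with the table block. Its members did not share 1 direction, since the basophil protease *Mcpt8* had 3 and 9 counts in Lrig1+ against 2 and 4 in Lrig1- libraries, and *Prss34* had 0 and 22 against 0 and 9. Genes of ST2-positive tissue Tregs formed a further list. With the table block 7 of 9 tested were called, each of them higher, against 14.6% of all genes called higher, among them *Ccr8*, a chemokine receptor (23.8 and 23.5 CPM against 2.74 and 3.17), *Nfil3*, *Areg*, *Klrg1* and *Batf*, whereas *Il10* and *Pparg* were not called. DESeq2 with the same block called 5, without *Areg* and *Rora*, against 10.6% of all genes. All 9 were higher in both sets, as were 5794 of the 16123 genes tested. The median log2 fold change of the list was 1.13, against -0.04 over all genes tested. *Foxp3*, *Il2ra*, *Ctla4*, *Ikzf2* and *Tnfrsf18*, which mark Tregs in general, summed to 2020 and 1717 CPM against 207 and 140, and all 5 were called higher with the table block. Of the Th2 genes 4 were tested, and *Gata3* and *Ccr4* were called higher while *Il4* and *Il17rb* were not. *Gata3* stands in this list and in that of tissue Tregs, where it is 1 of the 7 called. *Il5* was at most 0.0555 CPM and *Il13* at most 0.111 CPM in any library.

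*Il1rl2*, the receptor for IL-36 (gene ID 107527, chromosome 1 from 40324589 to 40367555), was lower in Lrig1+ T cells in both sets. It had 10.1 CPM (526 counts) in Lrig1+ and 24.3 CPM (1162 counts) in Lrig1- T cells of set 1. In set 2 it had 6.49 CPM (373 counts) and 18.0 CPM (973 counts). Both Lrig1- libraries exceeded both Lrig1+ libraries, and within each group set 1 was the higher. The mean was 8.30 ± 2.56 CPM (SD, n = 2) against 21.1 ± 4.42 (n = 2). The log2 ratio was -1.26 in set 1 (95% exact interval -1.41 to -1.11) and -1.47 in set 2 (-1.65 to -1.30). With edgeR's quasi-likelihood test it was -1.35 ± 0.40 (SE) with an adjusted p of 0.722, and with the table block -1.36 ± 0.11 and 2.08e-04. The main transcript, NM_133193, took 81.0% of the counts in Lrig1+ and 49.9% in Lrig1- T cells of set 1, and 98.1% and 82.1% in set 2. A second one with the same start and end, NM_001356478, took 71 and 329 counts in set 1 and 0 and 165 in set 2, so its estimated share was the higher in Lrig1- T cells of both sets. *Il1rl1* and *Il1rl2*, which both pair with *Il1rap*, thus stood in opposite order in the groups. Per length, *Il1rl1* had 1.32 and 1.77 times the TPM of *Il1rl2* in the Lrig1+ libraries, and 0.209 and 0.198 times in the Lrig1- libraries.

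*Il18rap*, the signalling chain of the IL-18 receptor (gene ID 16174, chromosome 1 from 40515362 to 40551707), was also lower in Lrig1+ T cells. It had 14.4 CPM (748 counts) in Lrig1+ and 26.7 CPM (1279 counts) in Lrig1- T cells of set 1. In set 2 it had 14.7 CPM (843 counts) and 31.5 CPM (1699 counts). The Lrig1+ libraries were within 0.3 CPM of each other, and both Lrig1- libraries stood above them. The mean was 14.5 ± 0.209 CPM (SD, n = 2) against 29.1 ± 3.36 (n = 2). The log2 ratio was -0.89 in set 1 (95% exact interval -1.03 to -0.76) and -1.10 in set 2 (-1.22 to -0.98). The quasi-likelihood test gave -1.001 ± 0.28 (SE) with an adjusted p of 0.699 in edgeR, and with the table block the adjusted p was 4.84e-04.

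*Il18r1*, which binds IL-18 (gene ID 16182, chromosome 1 from 40465552 to 40500854), differed less. It had 79.1 CPM (4116 counts) and 89.1 CPM (4266 counts) in Lrig1+ and Lrig1- T cells of set 1, and 44.2 CPM (2536 counts) and 56.7 CPM (3062 counts) in set 2. The groups overlapped, because both libraries of set 1 stood above both of set 2. Within the sets the log2 ratio was -0.17 (95% exact interval -0.23 to -0.11) and -0.36 (-0.44 to -0.28). The fold change with the table block was -0.26 ± 0.08 (SE) at an adjusted p of 0.0466 in edgeR's quasi-likelihood test, close to the threshold, and DESeq2's Wald test with the same block gave 0.0683. Per length, the binding chain exceeded the signalling chain in all 4 libraries. The ratio of *Il18r1* to *Il18rap* TPM was 7.03 against 4.35 in set 1 and 3.76 against 2.29 in set 2, the higher value being that of Lrig1+ T cells each time. *Il18r1* begins 133 bases after the annotated end of *Il1rl1* on the same strand, so strand does not separate reads that run past that end.

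NK cells, innate-like T cells and Th1 cells carry IL-18 receptors, and markers of the first and of innate-like T cells were lower in the Lrig1+ libraries. The 7 NK cell markers summed to 17.8 and 46.1 CPM in Lrig1+ against 61.1 and 161 in Lrig1- libraries, and 6 of 7 were called lower with the table block, against 12.8% of all genes, and *Ncr1* was not. DESeq2 with the same block called 4 of them, without *Klra4* and *Klra8*, against 10.5% of all genes. The innate-like T cell markers summed to 16.5 and 29.7 CPM against 46.9 and 65.4, and of 5 tested *Zbtb16*, *Trdc*, *Tcrg-C1* and *Tcrg-C2* were called lower. The part of these cells in the lower *Il18rap* was not tested. Th1 genes went both ways with the table block, which called 14.6% of all genes higher and 12.8% lower (10.6% and 10.5% with DESeq2). *Eomes*, *Cxcr3*, *Ifng* and *Stat4* were called higher (*Ifng* not by DESeq2), while *Tbx21*, the Th1 master regulator (14.0 and 18.4 CPM against 21.4 and 27.1), and *Il12rb2*, the IL-12 receptor chain (1.67 and 1.85 against 11.7 and 9.29), were called lower. Of the Th17 genes 3 were tested and 1, *Ccr6*, was called higher, against 14.6% of all genes. The remaining cell markers were those of CD8 T cells, which summed to 14.1 and 51.6 CPM against 19.5 and 97.3 with 2 of 2 called lower (1 of 2 by DESeq2 with the block), and those of B cells, which summed to 83.7 and 338 against 63.1 and 651 with 1 of 7, *Ms4a1*, called lower (4 of 7 by DESeq2).

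*Myd88* (gene ID 17874, chromosome 9 from 119335934 to 119340018, minus strand), the adaptor on which the signalling receptors converge, had 66.8 CPM (3475 counts) and 70.1 CPM (3355 counts) in Lrig1+ and Lrig1- T cells of set 1. In set 2 it had 78.0 CPM (4479 counts) and 93.7 CPM (5060 counts). The groups overlapped. Its log2 ratio was -0.07 in set 1 (95% exact interval -0.14 to 0.00) and -0.26 in set 2 (-0.32 to -0.21), and the table block gave -0.17 ± 0.08 (SE) at an adjusted p of 0.162 in edgeR. A difference of 1 on the log2 scale lay outside the counting interval of either set.

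The order of the 8 genes per length differed between the groups. *Myd88* was first in all 4 libraries, with 61.4 to 92.9 TPM, and *Il1r1* was last, with 0.155 to 0.661 TPM. *Il1r2* was the third in Lrig1+ of set 1 and the second in set 2, with 22.0 and 35.5 TPM, and it was next to last in both Lrig1- libraries, with 1.43 and 0.865 TPM. *Il18r1* was the second in both libraries of set 1, with 51.5 and 61.1 TPM, whereas in set 2 it was the third in Lrig1+ at 17.2 TPM and the second in Lrig1- at 20.8 TPM. Between these stood *Il1rap*, *Il18rap*, *Il1rl1* and *Il1rl2*, and in Lrig1- of set 2 *Il1rap* and *Il1rl2* were at 6.28 and 6.24 TPM. Among the 7 receptor genes *Il1r2* took 20.5% and 49.7% of the summed TPM in Lrig1+ libraries and 1.35% and 1.93% in Lrig1- libraries. The sum itself was 107 against 105 TPM in set 1 and 71.4 against 44.7 TPM in set 2.

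**Figure D3:**
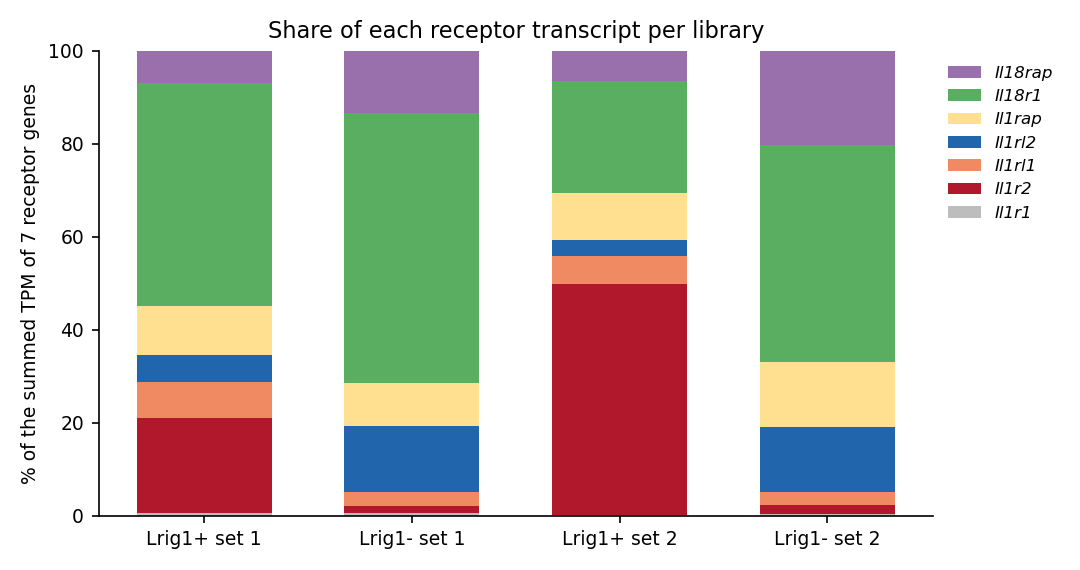
Share, in percent, of each of the 7 receptor genes in their summed TPM, 1 bar per library. *Il1r2* (dark red) takes 20.5% and 49.7% in the Lrig1+ libraries and under 2% in the Lrig1- libraries, while *Il1rl2* (blue) and *Il18rap* (purple) take the larger shares in Lrig1- T cells.

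6 of the receptor genes lie side by side on the plus strand of chromosome 1, within 467 kb from 40084692 to 40551707, and *Il1rap* lies on chromosome 16 from 26581509 to 26730128. Their differences did not share 1 direction along this cluster. In order they were *Il1r2* (higher), *Il1r1* (0.01 and -0.04 on the log2 scale), *Il1rl2* (lower), *Il1rl1* (higher), *Il18r1* (-0.17 and -0.36) and *Il18rap* (lower). The *Il1rl2* and *Il1rl1* genes, whose ratios had opposite signs in both sets, are adjacent receptor genes of the cluster. Outside it the nearest protein-coding gene before *Il1r2* was *Map4k4*, a kinase, with log2 ratios of -0.28 and -0.43 and an adjusted p of 0.0182 with the table block in edgeR. The nearest after *Il18rap* with counts in every library was *Mfsd9*, a transporter family gene, with -0.24 in set 1, 0.55 in set 2 and an adjusted p of 0.764. *Slc9a2* between them had 0 and 11 counts in set 1 and 3 and 0 in set 2, and *Gm17970*, a pseudogene inside *Il1rl2*, had 15 and 23 and then 2 and 0 counts. *Slc9a4*, *Gm35801*, *Gm37915*, *Gm35741*, *Gm35600*, *1700066B17Rik* and *Gm3646*, the remaining neighbours, had 0 counts in all 4 libraries.

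**Figure D4:**
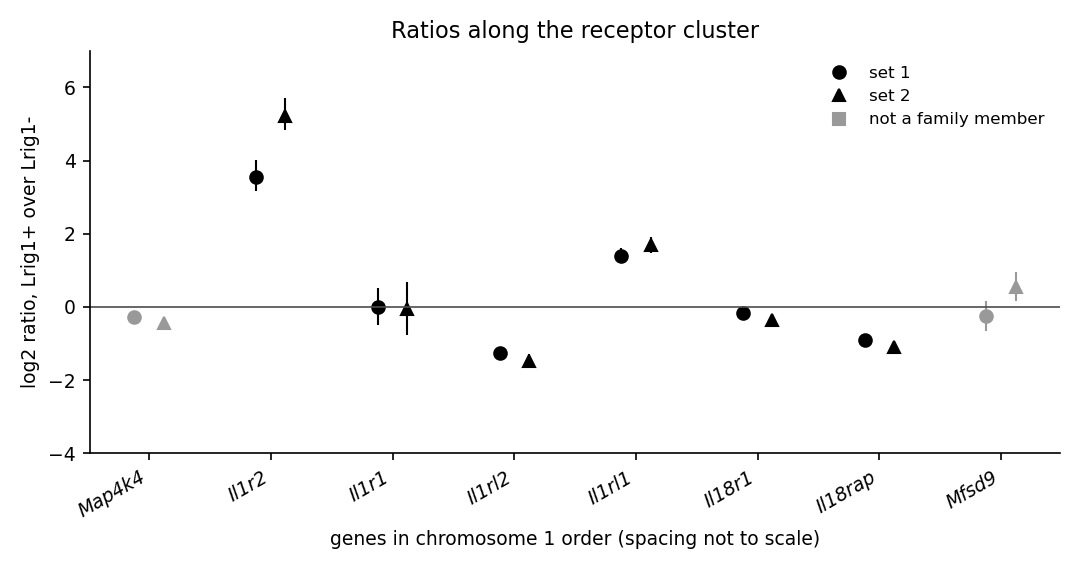
Log2 ratio of Lrig1+ over Lrig1- in set 1 (circles) and set 2 (triangles) for the receptor genes (black) in their order on chromosome 1 and for the nearest neighbours with at least 30 counts in every library (grey), with 95% exact intervals for counting error. *Il1r2* and *Il1rl1* lie above 0, *Il1r1* lies on it and *Il1rl2*, *Il18r1* and *Il18rap* lie below it in both sets.

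The other genes of the pathway were read by their role, with the table block as the test, since edgeR without it called none of them and 3 of 41 had an unadjusted p under 0.05. Over these lists 12 of 41 tested genes were called higher, 7 lower and 22 not called, and the median log2 fold change was 0.09 against -0.04 over all genes tested. The share called among all genes tested was 27.4%, as above. DESeq2 with the table block called 10 higher and 6 lower, against 21.1% of all genes, and did not call *Il18*, *Il1rn* or *Irak3*.

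Ligands of the family were scarce. Of 8 listed, 3 had no counts in any library (the genes of IL-36α, IL-36β and IL-38, named *Il1f6*, *Il1f8* and *Il1f10* in the tables), and 6 were under 1 CPM in every library, *Il33* and *Il1a* among them. *Il1b* had 1.13 and 2.33 CPM in Lrig1+ against 3.55 and 5.85 in Lrig1- libraries, and was called lower. *Il18*, in contrast, had 1.35 and 2.54 CPM against 0.376 and 1.15, and was called higher by edgeR, while the adjusted p of DESeq2 with the same block was 0.129. The IL-36γ gene (*Il1f9*) had 2 and 0 counts in Lrig1+ and 9 and 27 in Lrig1- libraries and was not called.

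Of 7 tested antagonists and negative regulators, 4 were called higher and 1 lower, against 14.6% and 12.8% of all genes. *Sigirr*, a receptor of the family that restrains IL-1 and IL-33 signalling, had 113 and 105 CPM in Lrig1+ against 74.1 and 71.0 in Lrig1- libraries, without overlap. *Otud7b*, a deubiquitinase, had 74.2 and 60.6 CPM against 47.6 and 41.7, also without overlap. *Tnfaip3*, the A20 inhibitor of NF-κB, had 515 and 153 CPM against 390 and 111, so that it was higher within each set while the groups overlapped. *Il1rn*, the IL-1 receptor antagonist, had 0.788 and 2.28 CPM against 0.188 and 0.963. *Irak3*, an IRAK that blocks the receptor complex, was called lower, with 5.42 and 6.11 CPM against 6.83 and 11.3. DESeq2 with the table block gave adjusted p-values of 0.151 for *Il1rn* and 0.154 for *Irak3*. *Il18bp*, the soluble trap for IL-18, had log2 ratios of 0.06 and 0.69 and was not called, nor was *Tollip*.

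Among the 22 genes that act after Myd88, 5 were called higher, 4 lower and 13 not at all. Of all genes 14.6% were called higher and 12.8% lower. The median log2 fold change of the 22 was -0.03. The called genes did not share 1 direction. *Peli2*, a ubiquitin ligase that acts on IRAK1, had 8.10 and 6.84 CPM in Lrig1+ against 0.418 and 0.648 in Lrig1- libraries, with log2 ratios of 4.16 and 3.33 and an adjusted p of 1.35e-04 in edgeR's quasi-likelihood test with the table block. Its paralogue *Peli1* was called lower, with 224 and 208 CPM against 266 and 331. *Nfkb1*, *Nfkbia*, *Nfkbiz* and *Irak2* were called higher by 0.51 to 0.81 on the log2 scale. *Nfkb1* encodes a subunit of NF-κB, *Nfkbia* and *Nfkbiz* encode IκB proteins that NF-κB itself induces, and *Irak2* is a kinase of the receptor complex. *Mapk14*, the p38α kinase, and *Chuk* and *Ikbkb*, both IκB kinases, were called lower with log2 fold changes of -0.40, -0.33 and -0.28. *Irak1*, *Irak4*, *Traf6*, *Map3k7* and *Rela*, core parts of the cascade, were not called, and their log2 fold changes lay between -0.18 and 0.09. The 4 further TIR adaptors tested (*Tirap*, *Ticam1*, *Ticam2* and *Sarm1*) were not called. The further receptor genes *Il1rapl1* and *Il1rapl2* had 0 counts in all 4 libraries and were not tested.

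Of the 5 genes listed under cytokine processing, 2 were called higher and 1 lower, against 14.6% and 12.8% of all genes. *Casp1*, which cleaves the precursors of both cytokines, had 18.2 and 41.4 CPM in Lrig1+ against 6.08 and 14.3 in Lrig1- libraries, with log2 ratios of 1.58 and 1.53. *Casp4*, the sensor of intracellular lipopolysaccharide, had 18.9 and 28.7 CPM against 3.65 and 5.63, with log2 ratios of 2.36 and 2.34. Both were called higher and their groups did not overlap. *Nlrp3*, an inflammasome sensor, had 0.442 and 0.313 CPM against 2.53 and 1.33, with log2 ratios of -2.42 and -1.96, and was called lower. *Pycard*, the adaptor between sensor and caspase, and *Gsdmd*, the pore former, were not called.

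**Figure D5:**
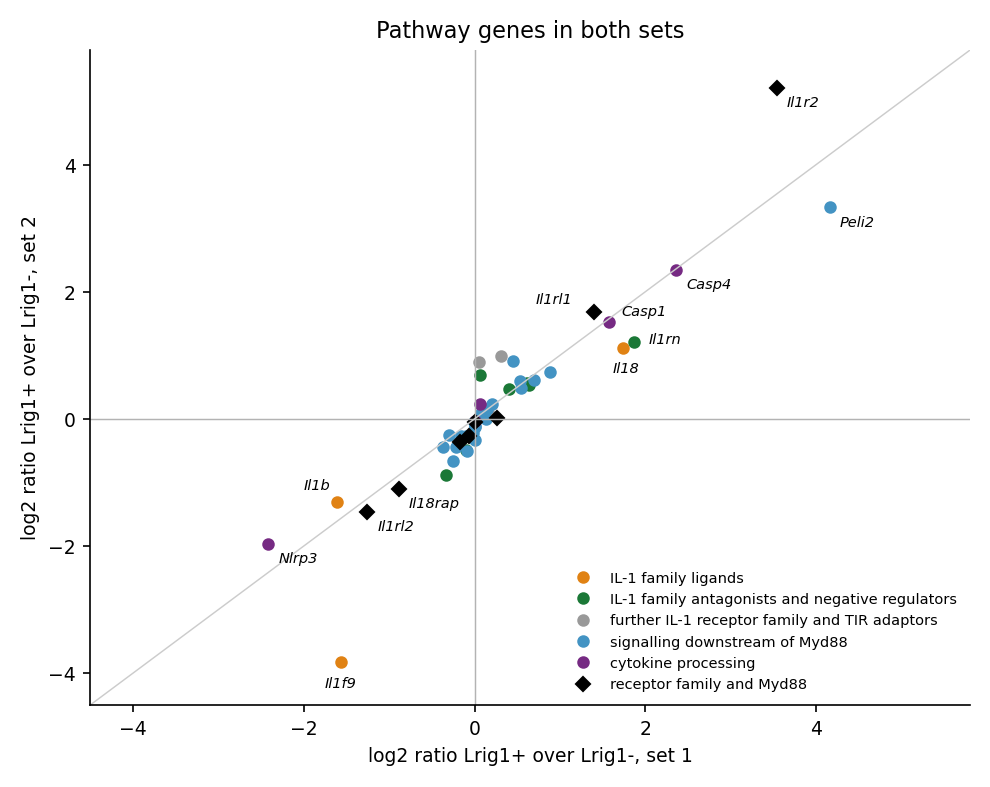
Log2 ratio of Lrig1+ over Lrig1- in set 1 (horizontal) and set 2 (vertical) for the 8 family genes (black diamonds) and the tested genes of 5 pathway lists (coloured points), with the line of equal ratios in grey. *Il1r2*, *Peli2* and *Casp4* lie farthest to the upper right and *Nlrp3* and *Il1f9* to the lower left.

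The genes whose levels over the 4 libraries were most like each member, by the smallest Euclidean distance between log2 CPM profiles centred on their mean, were drawn from 12784 genes with a mean of at least 50 counts. Nearest to *Il1r2* were *Ces2c* (14.7 and 21.6 CPM in Lrig1+ against 0.919 and 0.685 in Lrig1- libraries), *Serpina9* and *Smim10l2a*, at distances of 0.603 to 0.668. Nearest to *Il1rl1* were *Gadd45b*, *Chrm4* and *Hk2*, and to *Il1rl2* *Dennd3*, *Gm7912* and *Apbb2*. The profile of *Il18rap* was closest to those of *5830468F06Rik*, *Otud1* and *Entpd5*, and that of *Il18r1* to that of *Csnk1g1*. For the genes that differed little, *Il1rap* was closest to *Tbc1d22a*, *Bcas3* and *Wdr82*, *Il1r1* to *C2cd3*, *Larp1* and *Fam120a*, and *Myd88* to *Mak16*, *Inip* and *Nucks1*. The larger distances of the *Il1r2* neighbours go with its wider range over the libraries, and 4 libraries are few points for such a likeness.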

How the data were processed

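RNA of Lrig1+ and Lrig1- CD4+ T cells from mouse spleen was sequenced by the authors from stranded mRNA libraries. Per the labels and methods, reads were trimmed with Trimmomatic 0.38, mapped with HISAT2 2.1.0 and assembled with StringTie 2.1.3b, and the submitters' processing notes name GRCm38. The deposited tables give, for 129299 RefSeq transcripts, the authors' estimated counts (not normalized), FPKM (per kilobase and mapped fragments) and TPM (per kilobase, scaled per library). Strand use in counting is not given in the sources used here. A table with 6 columns of values that name no Lrig1 group was not used, so 4 of the 6 labelled samples entered, although the design was written for all.

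Counts were summed per gene symbol with Python 3.11.15. In R 4.3.3 genes passed filterByExpr, were TMM-scaled and tested with edgeR 4.0.16, quasi-likelihood (Benjamini-Hochberg adjusted p under 0.05), with 2 residual degrees of freedom, or 1 with the table block. DESeq2 1.42.0, edgeR's exact test, limma 3.58.1 on log2 FPKM with 1 or 0.1 added, other filters, other scaling and leaving out each library were alternatives, and the DESeq2 table block, also for the lists, was added after seeing the data. A prior count of 2 entered the within-set log2 ratios of genes, but not those of the *Il1rl1* starts and ends. The exact intervals of both are conditional binomial. The scripts were tested on simulated counts. Members and lists were chosen with earlier results of these data known. Genes named are the 8 members, list genes called with the table block (at most 6 per list and direction) or past 1 in log2 ratio in both sets, the 3 nearest profiles per member (for *Il18r1* the nearest alone, since an item is not reported here) and 5 neighbours on each side of the cluster. Some uncalled list members and defining markers were named after their values were seen. IL-36 genes were matched by RefSeq synonyms.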

Additional observations from a re-analysis of the deposited data

How the results depend on the processing

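The count of genes called depended on the model. The quasi-likelihood test called 0 higher and 0 lower, and so did DESeq2's size factors, both other filters and limma. The table block called 2358 higher and 2056 lower of 16123 genes, and the table block with DESeq2 1734 and 1708 of 16303. DESeq2's Wald test called 275 and 43 of 17640, and edgeR's exact test 179 and 14 of 16123. Leaving out 1 library gave 1 to 88 higher and 0 to 2 lower. Of the 8 family genes, 0 were called by the quasi-likelihood test, 5 with the table block, 1 by DESeq2, 1 by the exact test, 4 by DESeq2 with the table block and 0 to 1 without 1 library. The table block called 12 pathway genes higher and 7 lower, and with DESeq2 10 and 6, against 0 and 0 without it.

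*Il1r2* passed the threshold at 4.47 (table block), 4.57 (DESeq2), 4.58 (exact test) and 4.41 (DESeq2 with the table block), and ranged from 3.72 to 5.13 without 1 library. With the table block and with DESeq2 and the table block, *Il1rl1* passed at 1.55 and 1.53, *Il1rl2* at -1.36 and -1.38 and *Il18rap* at -0.997 and -1.01. *Il18r1* passed at -0.26 with the table block of edgeR alone. The genes with the smallest differences changed sign without passing. *Il1r1* was 0.0038 with limma on log2(FPKM + 1), 0.016 on log2(FPKM + 0.1) and -0.67 to 0.67 without 1 library, *Il18r1* was -0.70 to 0.16 and *Myd88* -0.33 to 0.052 without 1 library. These last fits carry no set term, and the gap between the sets enters their values.

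Within the sets, 44 of 48 recomputed ratios stayed within their counting interval and 2 changed sign, both of *Il1r1* in set 2, whose interval includes 0 (0.029 with FPKM and 0.052 with library totals). In set 2, *Il1rap* moved to 0.18 and *Myd88* to -0.17 with FPKM, and scaling by library totals moved *Il18r1* to -0.26 and *Myd88* to -0.16. Scaling by totals or FPKM moved the median of all genes by at most 0.09 on the log2 scale. The table block is the paired fit, since each table holds 1 library of each group. By the labels' replicate numbers no paired analysis was possible because the columns carry none. With 2 libraries per group, differences as small as those of *Il1rap* and *Myd88* passed the threshold in none of these fits, and that of *Il18r1* in 1.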
